A study of Mus musculus with 6 samples.

Results

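The genes described here are 40 mouse genes whose products run the G2 phase and mitosis, a list of gene symbols that was looked up in a table of 22880 genes. All 40 were found. They were compared between MC-38 colon adenocarcinoma cells with a knock-down of HIF-1α (HIF-1α-KD) and control cells (Mock), after both had grown as orthotopic tumors in the cecum wall of C57BL/6J mice. MC-38 is a mouse line used as a model of colorectal cancer, and the cells carried green fluorescent protein (GFP), so that living GFP-positive tumor cells could be sorted from the digested tumors, leaving out cells with CD45 (leukocytes) or CD31 (endothelium). According to the labels, both groups had been transduced with the pLKO.1-puro vector, so the Mock cells carried it too, and neither group had been passaged in vivo. The host tissue around the tumor cells had normal HIF-1α, and the sources used here give neither the age of the mice nor whether each line is a single clone. RNA of the sorted cells was sequenced in 6 libraries, 3 Mock and 3 HIF-1α-KD. Nothing in the labels says that the libraries of a group came from separate tumors, so the p-values given measure only the spread between these libraries, which may be technical.

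Most of these genes are switched on late in the cell cycle. Cyclin B and CDK1 drive entry into mitosis, the Aurora and Polo kinases build the spindle, the checkpoint proteins hold anaphase back until every kinetochore is attached, and the anaphase-promoting complex (APC/C) then destroys cyclin B and securin so that the cell can divide. Because their transcripts are high in G2 and mitosis and low in resting cells, such genes are widely read as a sign of how many cells are dividing. In bulk RNA, fewer cells in G2 and mitosis and less of each transcript per cell cannot be told apart.

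Many promoters of this class hold a cell cycle homology element (CHR), a short site at which the DREAM complex represses the gene in resting cells and B-MYB and FOXM1 take part in its activation in G2, together with CCAAT boxes bound by the factor NF-Y. RefSeq promoter windows of GRCm38.p6, from 250 bases before to 50 bases after a start site (300 bases), were available for 33 of the 40 genes, in 36 windows. A CHR, searched on either strand as TTTGAA and, with C in place of the T before its G, as TTCGAA, stood in 28 of the 36 windows (77.8%), against 19.2% of all 32851 windows and 13.7% of the windows of the genes tested. CCAAT on either strand was in 77.8% of the windows of the 40 genes and in 37.4% of all windows, and both motifs together were in 69.4% and 7.52%. The core of the hypoxia response element, ACGTG on either strand, was in 27.8% of their windows, 19.6% of all windows and 25.2% of those of genes tested. A match describes the sequence without showing that a factor binds.

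The promoters of 4 of the genes followed in every library below are shown because their motifs lie close to the start of the gene. Each stretch runs 5′ to 3′ over 150 bases, from 130 bases before to 20 bases into the outermost RefSeq start of the gene, and all 4 genes lie on the minus strand. Capitals mark each CHR and each CCAAT box, on either strand.
Bub1 (chr2:127831840-127831989): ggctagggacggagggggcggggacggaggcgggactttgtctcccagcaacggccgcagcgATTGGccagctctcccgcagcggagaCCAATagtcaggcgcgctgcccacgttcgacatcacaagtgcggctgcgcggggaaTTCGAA
Mki67 (chr7:135716431-135716580): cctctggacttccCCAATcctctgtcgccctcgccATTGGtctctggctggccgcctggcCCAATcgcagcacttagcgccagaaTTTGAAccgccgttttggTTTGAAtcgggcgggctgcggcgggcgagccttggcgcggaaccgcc
Cdk1 (chr10:69352893-69353042): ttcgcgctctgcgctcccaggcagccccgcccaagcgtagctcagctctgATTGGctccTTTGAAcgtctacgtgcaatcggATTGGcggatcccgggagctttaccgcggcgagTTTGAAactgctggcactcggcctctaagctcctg
Top2a (chr11:99024180-99024329): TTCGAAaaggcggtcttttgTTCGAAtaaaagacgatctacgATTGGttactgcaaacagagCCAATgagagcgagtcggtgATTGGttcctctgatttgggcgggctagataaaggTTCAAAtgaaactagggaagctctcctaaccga
Mki67 held 2 CHRs, whose first bases lay at -45 and -27 counted from the start, and 3 CCAAT boxes. Cdk1 held a CHR at -71 and another at -15, and in Bub1 the single CHR lay at 15, just inside the transcribed part. These 4 genes had log2 fold changes of -0.35 for Bub1, 1.19 for Mki67, -0.29 for Cdk1 and -0.08 for Top2a, none of which passed the test described below.

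The libraries held between 19845852 and 30809140 reads on genes. The values compared are the deposited normalized counts (reads of a gene divided by 1 factor per library), on the scale log2(normalized count + 1), tested with limma over the 12014 genes that passed a filter on low counts. A log2 fold change above 0 means more in HIF-1α-KD cells. Gene positions are those of GENCODE M21 on GRCm38. All 40 genes passed the filter, with at least 57 reads in every library. Hif1a itself had 6914, 5424 and 4945 as normalized counts in Mock libraries 1 to 3, against 697.3, 3142 and 1928 in the knock-down libraries (log2 fold change -1.82, SE 0.46, limma adjusted p = 0.219), so the groups did not overlap but the residual level varied between the knock-down libraries. Markers of other cells moved between libraries: the summed normalized count of 17 leukocyte markers was 5020 to 6461 over the Mock libraries, and 3782, 8944 and 17133 in knock-down libraries 1 to 3, with Cd3e, Cd3g and Nkg7 among those at 0 in some libraries. Of the sum in knock-down library 2, Cd74 alone made up 5585, while Csf1r, Adgre1, Itgam, Cd68, Lyz2 and Tyrobp were lower there than in every Mock library. The 10 endothelial markers summed to 602 to 753 and 476 to 707 (Cldn5, Emcn, Esam and Tie1 at 0 in some libraries), the 10 fibroblast markers to 113652 to 259574 and 317189 to 444946 (none at 0), and the 10 colon epithelial markers to 113 to 748 and 104 to 141 (Cdx2 at 0 in some libraries, Epcam between 2.31 and 37.5). Single genes held much of the endothelial and fibroblast sums. Over the 6 libraries, Cdh5 held 198 to 569 and Eng 91.1 to 233, while Pecam1 held 33.5 to 75.1. Col3a1 held 64990 to 206400, Col1a1 9848 to 186200 and Dcn 15050 to 42580, while Thy1 held 2.41 to 18.1 and Postn 1.23 to 128. Which cells these transcripts came from, and the part of other cells in the results below, were not tested.

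None of the 40 genes differed between HIF-1α-KD and Mock cells at an adjusted p-value under 0.05 (limma, Benjamini-Hochberg over all genes tested), a threshold that 0.391% of all genes tested passed (0.00832% higher and 0.383% lower). The lowest adjusted p-value among them was 0.275, for Cks2. With edgeR and DESeq2 on the recovered reads, 0 of the 40 were called as well. Of all 12014 genes tested, edgeR called 0 higher and 47 lower, and DESeq2 called 96 higher and 187 lower. Without adjustment, 5 of the 40 genes had a p-value under 0.05, 0 with higher and 5 with lower values in the knock-down (Cks2, Ndc80, Ccnb1, Nusap1 and Anln), beside 12.7% of all genes tested, 7.04% higher and 5.69% lower. edgeR gave 0 higher and 7 lower genes at this level (6.09% and 6.33% of all genes tested) and DESeq2 gave 1 and 6 (6.78% and 6.18%). With scaling by library size alone in place of the deposited factors, that split was 1 higher and 1 lower, and that of all genes moved too, to 9.03% higher and 4.36% lower. The split also changed when a library was left out. Without Mock library 1 it was 0 higher and 2 lower (all genes 3.90% and 4.53%), without Mock library 2 it was 3 and 1 (7.71% and 5.19%), and without Mock library 3 it was 2 and 4 (6.29% and 5.59%). Without HIF-1α-KD library 1 it was 1 higher and 6 lower (all genes 6.734% and 5.002%), without HIF-1α-KD library 2 it was 2 and 9 (4.55% and 4.24%), and without HIF-1α-KD library 3 it was 1 and 1 (5.62% and 5.85%).

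The direction leaned to lower values by a small amount. The log2 fold change lay below 0 in 30 of the 40 genes and above 0 in 10, beside 47.3% and 52.7% of all genes tested. The number below 0 was 33, 21 and 32 without Mock libraries 1, 2 and 3, and 31, 29 and 22 without HIF-1α-KD libraries 1, 2 and 3. It was 24 with scaling by library size alone, which moved the median of all genes to 0.08 and left the difference between the 40 genes and all genes at -0.17. The median over the 40 genes was -0.15, with quartiles of -0.36 and 0.01, beside a median of 0.02 over all genes tested, a difference of -0.17. This difference was smaller than the spread between libraries of a group, which had a pooled SD of 0.22 for the median of the 40 genes in a library. The difference from all genes was -0.20, -0.05 and -0.28 without Mock libraries 1, 2 and 3, and -0.26, -0.32 and -0.05 without HIF-1α-KD libraries 1, 2 and 3. In 32 of the 40 genes the log2 fold change was within 0.5 of 0, and in 8 it reached a fold of 1.5 in size (20% of the genes, beside 13.4% of all genes tested). The 95% interval of a log2 fold change reached 0.47 to either side in the median gene.

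**Figure D1:**
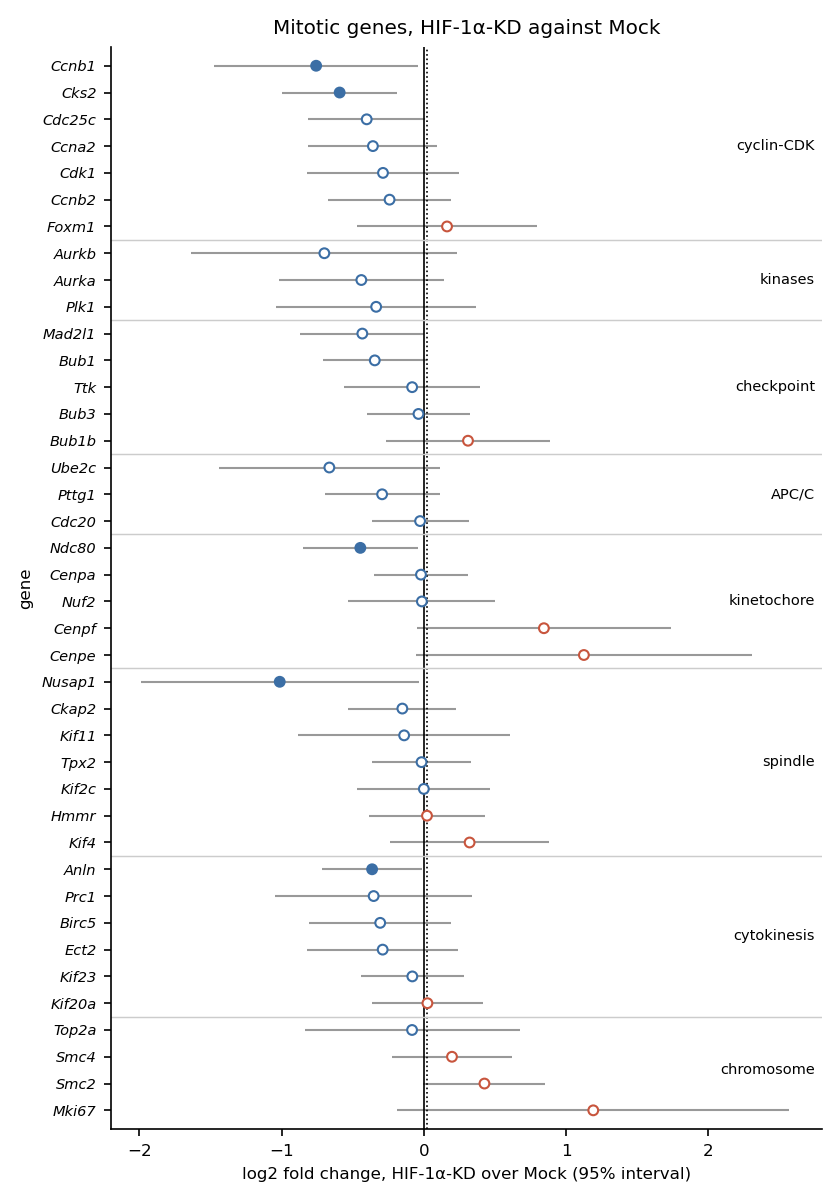
Log2 fold change of each of the 40 genes (HIF-1α-KD over Mock, x axis), with its 95% interval from limma, ordered within functional groups; blue points lie below 0, red points above 0, and filled points had an unadjusted p-value under 0.05. The dotted line is the median of all genes tested (0.02). The intervals of 35 of the 40 genes include 0, and the 5 filled points all lie below 0.

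Expressed per length, as fragments per kilobase of gene at equal depth (FPKM), the genes covered a wide range of levels. Top2a, the topoisomerase that untangles sister chromosomes, had the highest level, with a mean FPKM of 379 ± 91.6 for Mock and 395 ± 172 for HIF-1α-KD cells (SD, n = 3 each). Cdk1, the kinase at the center of mitotic entry, followed with 151 ± 9.59 and 133 ± 44.5, and Ccna2, which encodes cyclin A2, with 123 ± 9.09 and 102 ± 28.2. Over all 6 libraries, the lowest mean levels belonged to Cenpf, with 1.92 ± 0.98 and 3.22 ± 0.37, and to Mki67, with 2.86 ± 1.73 and 6.29 ± 3.46. Neighbours at the top differed by more than their spread only in part, since the values of Cdk1 and Ccna2 in HIF-1α-KD cells lay within an SD of each other. These levels rest on the deposited gene width, which was 1700 bases for Top2a, 1010 for Cdk1 and 1700 for Ccna2. Their longest annotated transcripts have 5221, 4375 and 2965 bases. For Mki67 the width was 10100 and the longest transcript 10061 bases, and for Cenpf these were 3250 and 11130. The order of the genes with another length was not tested.

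Among the 7 genes of the cyclin and CDK engine, 6 had a log2 fold change below 0, with a median of -0.36. Cks2 (ENSMUSG00000062248, chromosome 13, 51645232 to 51650660), a small subunit that binds CDK1, had 931.9, 816.3 and 676.4 as normalized counts in Mock libraries 1 to 3, against 534.1, 574.4 and 488.6 in the knock-down libraries. All 3 HIF-1α-KD libraries lay below all 3 Mock libraries. Its log2 fold change was -0.59 (SE 0.18, unadjusted p = 0.00896, limma adjusted p = 0.275), and leaving out any single library gave values from -0.71 to -0.48. Ccnb1 (ENSMUSG00000041431, chromosome 13, 100778650 to 100786570), which encodes cyclin B1, the activator of CDK1, held 3297, 3448 and 2254 in Mock against 1982, 2553 and 1047 in the knock-down libraries. HIF-1α-KD library 3 was the lowest of the 6 and HIF-1α-KD library 2 lay within the Mock range. The log2 fold change of Ccnb1 was -0.76 (SE 0.32, limma adjusted p = 0.382), and -0.39 without HIF-1α-KD library 3.

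Cdk1 held 3822, 3915 and 3688 in Mock against 3391, 4249 and 2106 in the knock-down libraries. The 3 Mock libraries were close together, whereas the HIF-1α-KD libraries lay on both sides of them, with library 3 far below. On the log2 scale the difference was -0.29 (95% interval -0.82 to 0.25), and without that library it was -0.0043. Foxm1, the transcription factor that activates many G2 and M genes, held 796.5, 1498 and 1191 in Mock against 1638, 1321 and 921.8 in the knock-down libraries. The groups overlapped, with the highest value in HIF-1α-KD library 1 and the lowest in Mock library 1. Its log2 fold change of 0.16 (95% interval -0.47 to 0.79) was the only one above 0 in the group, and it turned to -0.09 without Mock library 1 and to -0.03 without HIF-1α-KD library 1. Of the other 3 genes, Cdc25c, a phosphatase that activates CDK1, did not overlap between the groups (402.6, 400.0 and 345.5 in Mock against 318.5, 281.8 and 268.0, a log2 fold change of -0.40). Ccna2 and Ccnb2 overlapped, with log2 fold changes of -0.36 and -0.24. Leaving out 1 library moved Ccna2 to between -0.55 (without HIF-1α-KD library 2) and -0.15 (without HIF-1α-KD library 3), and Ccnb2 to between -0.39 (without Mock library 3) and -0.12 (without HIF-1α-KD library 2).

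The 3 mitotic kinases all had log2 fold changes below 0, with a median of -0.44 and wide intervals, and the median was -0.17 without HIF-1α-KD library 3 and -0.29 without Mock library 2. Aurkb, the Aurora kinase of the chromosomal passenger complex that corrects faulty attachments, held 1423, 2231 and 1503 in Mock against 1350, 1662 and 495.5 in the knock-down libraries. Only HIF-1α-KD library 3 was far below the rest, and library 2 of that group lay inside the Mock range. On the log2 scale Aurkb differed by -0.70 (95% interval -1.64 to 0.24, limma adjusted p = 0.523), and -0.17 without HIF-1α-KD library 3. Plk1, the Polo-like kinase needed for spindle assembly, held 950.4, 1688 and 1161 in Mock against 1331, 1118 and 622.6 in the knock-down libraries. Here a pair of HIF-1α-KD libraries lay inside the Mock range, and the log2 fold change of -0.34 (95% interval -1.04 to 0.37) became -0.01 without library 3. Aurka, the Aurora kinase of the spindle poles, had a log2 fold change of -0.44 with overlapping groups, and -0.17 without HIF-1α-KD library 3.

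The median over the 5 spindle checkpoint genes was -0.08 on the log2 scale, and 0.09 without HIF-1α-KD library 3. Bub1, the checkpoint kinase at the kinetochore, held 2245, 2280 and 1766 in Mock against 1784, 1699 and 1454 in the knock-down libraries. The groups overlapped narrowly, since HIF-1α-KD library 1 lay just above Mock library 3. The log2 fold change of Bub1 was -0.35 (SE 0.16, limma adjusted p = 0.413). Mad2l1, which encodes the APC/C inhibitor MAD2, had -0.43 (adjusted p = 0.395), whereas Ttk and Bub3 lay near 0 with -0.08 and -0.04 and Bub1b, the scaffold of the inhibitory complex, had 0.31. Without HIF-1α-KD library 3, Ttk and Bub3 were at 0.09 and 0.11, and Bub1b ranged from 0.10 (without HIF-1α-KD library 1) to 0.52 (without Mock library 2). Among the APC/C and anaphase genes, Ube2c, its ubiquitin-conjugating enzyme, had -0.66 (95% interval -1.44 to 0.11), Pttg1, which encodes securin, had -0.29 and Cdc20, the APC/C activator, had -0.03. The HIF-1α-KD libraries of Ube2c held 1646, 1947 and 691.9 beside 1993, 2312 and 1919 in Mock, so the lowest value again came from library 3, without which the log2 fold change was -0.21, while those of Cdc20 held 1834, 1787 and 1825 and lay inside the Mock range of 1618 to 2162.

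The 5 centromere and kinetochore genes went both ways. Ndc80 (ENSMUSG00000024056, chromosome 17, 71496100 to 71526857), the microtubule-binding subunit of the outer kinetochore, held 906.1, 1047 and 908.4 in Mock against 799.5, 748.2 and 568.3 in the knock-down libraries. The highest knock-down library was below the lowest Mock library. For Ndc80 the log2 fold change was -0.45 (SE 0.18, unadjusted p = 0.0347, limma adjusted p = 0.372) and ranged from -0.54 to -0.30 when any single library was left out. Cenpe (ENSMUSG00000045328, chromosome 3, 135212537 to 135273611), a kinesin that carries chromosomes to the spindle equator, held 121.9, 420.1 and 404.7 in Mock against 449.6, 438.9 and 1099 in the knock-down libraries. The groups did not overlap, but a single Mock library was low and a single HIF-1α-KD library was high, while the other 4 libraries lay between 404.7 and 449.6. Cenpe thus had a log2 fold change of 1.13 (SE 0.52, 95% interval -0.05 to 2.31, limma adjusted p = 0.409), and 0.54 without Mock library 1.

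Cenpf (ENSMUSG00000026605, chromosome 1, 189640606 to 189688086), a large protein of the outer kinetochore that accumulates in G2, held 70.17, 214.4 and 180.0 in Mock against 263.0, 219.4 and 274.9 in the knock-down libraries. These groups did not overlap either, by a margin of only 214.4 against 219.4. Cenpf had a log2 fold change of 0.84 (SE 0.39, limma adjusted p = 0.415), and 0.35 without Mock library 1. The other kinetochore genes, Nuf2, a partner of NDC80, and Cenpa, the histone variant of the centromere, had log2 fold changes of -0.01 and -0.02 with overlapping groups. Nuf2 ranged from -0.20 (without HIF-1α-KD library 1) to 0.23 (without HIF-1α-KD library 3). Cenpa ranged from -0.08 (without HIF-1α-KD library 3) to 0.03 (without HIF-1α-KD library 2). Over all 40 genes, the libraries did not overlap in 2 genes that were higher in HIF-1α-KD cells (Cenpe and Cenpf) and in 4 that were lower (Cks2, Ndc80, Cdc25c and Anln), beside 10.4% and 8.75% of all genes tested.

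**Figure D2:**
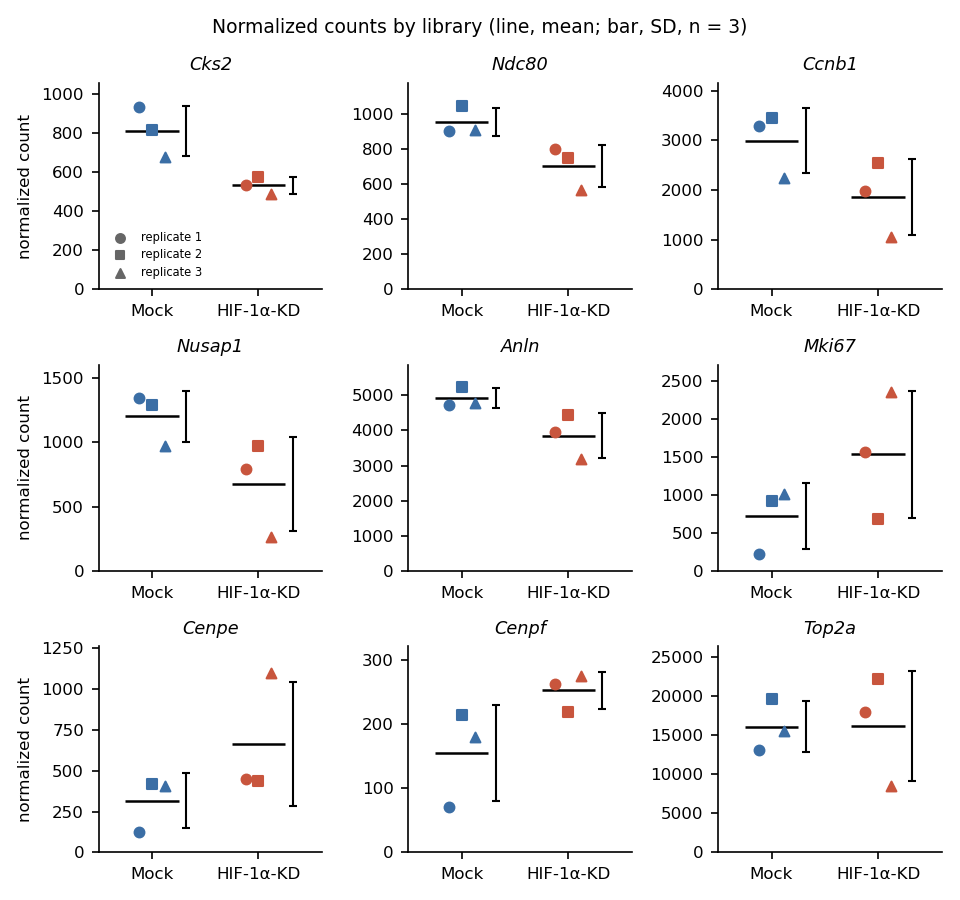
Normalized counts (y axis, starting at 0) of 9 of the genes in the 3 Mock and 3 HIF-1α-KD libraries; symbols mark the replicate, the horizontal line the mean and the bar the SD (n = 3). In Cks2, Ndc80 and Anln the groups do not overlap, in Ccnb1 and Nusap1 the triangle of HIF-1α-KD library 3 lies lowest, and in Mki67, Cenpe and Cenpf the circle of Mock library 1 lies lowest.

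Of the 7 spindle motors and binding proteins, 5 had log2 fold changes below 0, and the median was -0.02. Without HIF-1α-KD library 3, 2 of the 7 lay below 0 and the median was 0.07, and without Mock library 2 these were 2 of 7 and 0.10. Nusap1 (ENSMUSG00000027306, chromosome 2, 119618298 to 119651244), which bundles spindle microtubules near chromatin, held 1343, 1288 and 970.0 in Mock against 789.8, 972.4 and 264.5 in the knock-down libraries. HIF-1α-KD library 2 lay barely above Mock library 3, and HIF-1α-KD library 3 was far below all others. Its log2 fold change of -1.01 (SE 0.43, unadjusted p = 0.0436, limma adjusted p = 0.384) was the lowest of the 40, and it was -0.44 without HIF-1α-KD library 3. The kinesins Kif11, which pushes the spindle poles apart, and Kif2c, which takes microtubules down at their ends, had log2 fold changes of -0.14 and -0.00011, and the chromokinesin Kif4 had 0.32. Kif11 turned to 0.27 without HIF-1α-KD library 3, and Kif4 was at 0.06 without Mock library 1. Tpx2, Hmmr and Ckap2, which bind spindle microtubules, had -0.02, 0.02 and -0.15. Without Mock library 2 these values were 0.10, 0.19 and -0.03. Tpx2 was at -0.10 without Mock library 1, and Hmmr and Ckap2 were at -0.10 and -0.24 without Mock library 3.

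Among the 6 genes of cytokinesis and the chromosomal passengers, 5 lay below 0, with a median of -0.30, which was -0.06 without HIF-1α-KD library 3. Anln (ENSMUSG00000036777, chromosome 9, 22332012 to 22389188), the scaffold anillin of the contractile ring, held 4736, 5240 and 4783 in Mock against 3944, 4439 and 3180 in the knock-down libraries. Every HIF-1α-KD library lay below every Mock library. The log2 fold change of Anln was -0.36 (SE 0.16, unadjusted p = 0.0452, limma adjusted p = 0.386), with values between -0.47 and -0.23 when each library was left out. Prc1, which bundles the central spindle, had -0.35, Birc5, which encodes survivin, had -0.31, and Ect2, the activator of RhoA at the cleavage site, had -0.29. Without HIF-1α-KD library 3 these values were 0.03, -0.06 and -0.08. The kinesins of the central spindle lay near 0, with -0.08 for Kif23 and 0.02 for Kif20a.

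Of the 4 genes of chromosome structure, 3 had log2 fold changes above 0, and the median was 0.31. Mki67 (ENSMUSG00000031004, chromosome 7, 135689784 to 135716361), whose product coats mitotic chromosomes and is the usual stain for dividing cells, held 225.3, 919.7 and 1012 in Mock against 1557, 687.1 and 2344 in the knock-down libraries. The groups overlapped, with HIF-1α-KD library 2 inside the Mock range, library 3 the highest of all and Mock library 1 the lowest. Its log2 fold change of 1.19 (SE 0.61, 95% interval -0.19 to 2.57, limma adjusted p = 0.46) was the highest of the 40, and it was 0.49 without Mock library 1. Top2a held 13110, 19590 and 15530 in Mock against 17920, 22220 and 8429 in the knock-down libraries. Both the highest and the lowest value came from the HIF-1α-KD group, so the groups overlapped fully. The log2 fold change of Top2a was -0.08 (95% interval -0.84 to 0.67), and it turned to 0.33 without HIF-1α-KD library 3 and to 0.07 without Mock library 2. The condensin subunits Smc2 and Smc4, which fold mitotic chromosomes, had log2 fold changes of 0.43 (limma adjusted p = 0.395) and 0.20, and Smc4 ranged from 0.05 (without Mock library 1) to 0.35 (without HIF-1α-KD library 1).

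**Figure D3:**
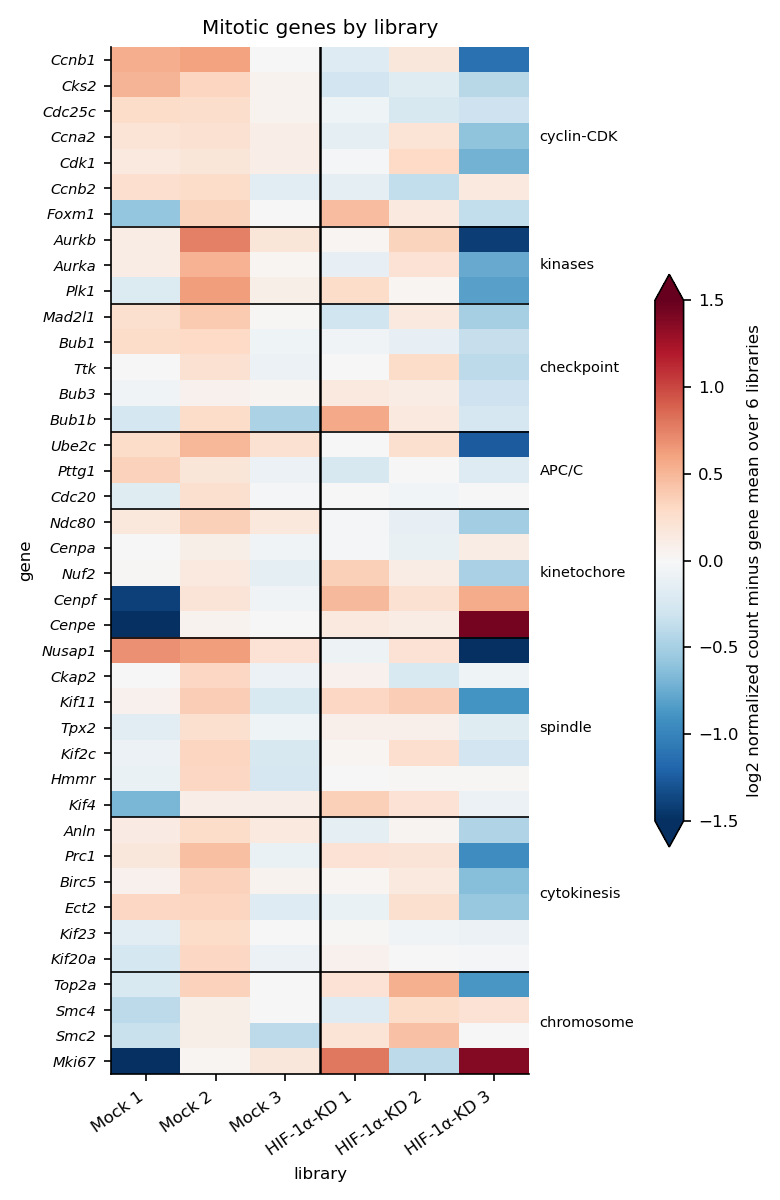
Level of each of the 40 genes in each library, as the log2 normalized count minus the gene's mean over the 6 libraries (color, clipped at -1.5 and 1.5), grouped by function. Blue prevails in the column of HIF-1α-KD library 3 and red in that of Mock library 2, whereas Cenpf, Cenpe and Mki67 are low in Mock library 1 and high in HIF-1α-KD library 3.

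Most of the spread lay between single libraries. The median deviation of the 40 genes from their own means was 0.01, 0.29 and -0.01 in Mock libraries 1 to 3 and 0.01, 0.15 and -0.36 in HIF-1α-KD libraries 1 to 3. By this median HIF-1α-KD libraries 1 and 2 lay inside the Mock range, and library 3 lay below it. Gene by gene, HIF-1α-KD library 1 lay inside the Mock range in 17 of the 40 genes, below it in 14 and above it in 9, and library 2 lay inside it in 22, below it in 8 and above it in 10. HIF-1α-KD library 3 was the lowest of the 6 libraries in 24 of the 40 genes (60%), beside 14.9% of all genes tested, and Mock library 2 was the highest in 21 (52.5%), beside 8.88%. In 25 genes HIF-1α-KD library 3 lay below all Mock libraries, but in 5 it lay above them (Mki67, Cenpe, Cenpf, Smc4 and Cenpa). HIF-1α-KD library 3 was also the library with the highest summed leukocyte markers, and whether this has a part in its low values was not tested. The 40 genes together took 0.346% ± 0.059 of the reads of a Mock library and 0.33% ± 0.069 of those of a knock-down library (SD, n = 3 each).

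**Figure D4:**
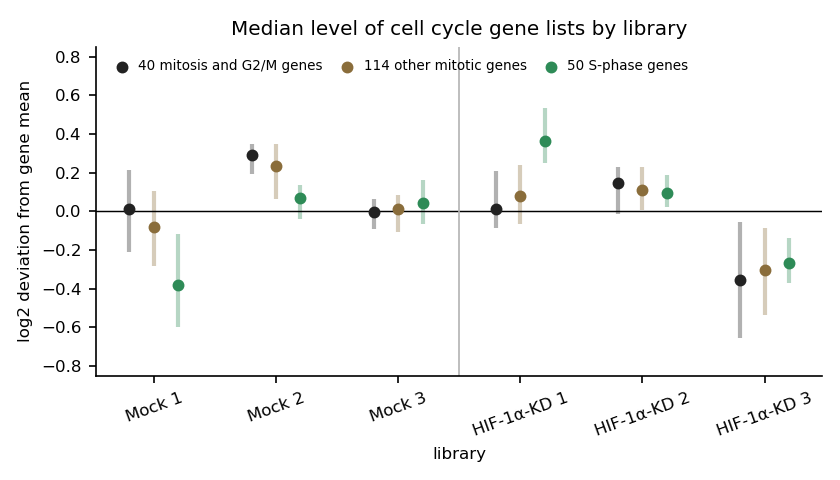
Median log2 deviation from the gene mean (points, y axis) and quartiles (bars) of 3 cell cycle gene lists in each library. HIF-1α-KD library 3 lies lowest for the 40 mitosis and G2/M genes (-0.36) and the 114 other mitotic genes (-0.30), and Mock library 1 for the 50 S-phase genes (-0.38).

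A wider list of 114 other mitotic genes, all of them tested, showed the same order at the ends. Its median deviation was lowest in HIF-1α-KD library 3 (-0.30) and highest in Mock library 2 (0.24), and its median log2 fold change differed from that of all genes by -0.08. That difference was 0.03 without HIF-1α-KD library 3, -0.02 without Mock library 2 and between -0.17 and -0.11 without any other single library. Without adjustment, 3 of these genes were higher and 0 lower at a p-value under 0.05 (beside 7.04% and 5.69% of all genes tested), and 0 passed an adjusted p-value of 0.05 in limma. The 3 genes were Cdc25a, a phosphatase that acts at the start of S phase and in mitosis (log2 fold change 0.52, limma adjusted p = 0.271), and the cohesin subunits Smc3 and Smc1a (0.49 and 0.54). A list of 50 S-phase genes had other libraries at its ends. Its median deviation was lowest in Mock library 1 (-0.38) and highest in HIF-1α-KD library 1 (0.36), which was the highest of the 6 libraries in 39 of the 50 genes. Its median log2 fold change differed from that of all genes by 0.12, and this difference was -0.04 without HIF-1α-KD library 1, 0.002 without Mock library 1 and between 0.125 and 0.271 without any other single library. Of the S-phase genes, 39 had a log2 fold change above 0 (78%, beside 52.7% of all genes tested), 5 were higher and 1 lower at p under 0.05 without adjustment (10% and 2%, beside 7.04% and 5.69%), and 0 passed the adjusted threshold in limma. Named by the smallest p-values, E2f2, Ccne1 and Rfc1 had log2 fold changes of 0.77, 0.72 and 0.59, and Dut had -0.39.

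Of the 4 genes with annotated transcripts above 6000 bases, 3 had the highest fold changes of the 40. Cenpf, Mki67 and Cenpe have longest annotated transcripts (GENCODE M21, GRCm38) of 11130, 10061 and 7910 bases and log2 fold changes of 0.84, 1.19 and 1.13. Cks2, with the shortest transcript of the 40 (692 bases), had -0.59, and Mad2l1, with an annotated transcript of 7557 bases, had -0.43. Across the 40 genes, Spearman's rho between the log2 fold change and the longest transcript was 0.57, beside 0.41 over the 114 other mitotic genes, 0.42 over the 50 S-phase genes and 0.23 over 11984 genes tested. These are correlations across genes measured in the same 6 libraries, and genes are not independent replicates. Among all genes tested the median log2 fold change went from -0.10 for transcripts up to 1000 bases to 0.26 for those above 8000 bases. Transcripts above 8000 bases had median deviations of -0.20 and -0.20 in Mock libraries 1 and 3. In the other 4 libraries these medians were above 0. Mki67, Cenpe and Cenpf followed this only in part. Their deviations were -1.99, -1.73 and -1.40 in Mock library 1, but 0.17, -0.01 and -0.06 in Mock library 3. In HIF-1α-KD library 2, Mki67 lay at -0.39. Each library was also corrected for the longest annotated transcript, an alternative chosen after seeing the data. The log2 fold changes of Mki67, Cenpe and Cenpf were then 0.95, 0.94 and 0.58, and that of Cks2 was -0.47. With this correction, 0 of the 40 genes were without overlap on the higher side, beside 9.42% of all genes tested. After correction for the deposited gene width instead, the log2 fold changes of Mki67, Cenpe, Cenpf and Cks2 were 0.914, 1.104, 0.769 and -0.502. Here 2 of the 40 genes were without overlap on the higher side, beside 9.705% of all genes tested.

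**Figure D5:**
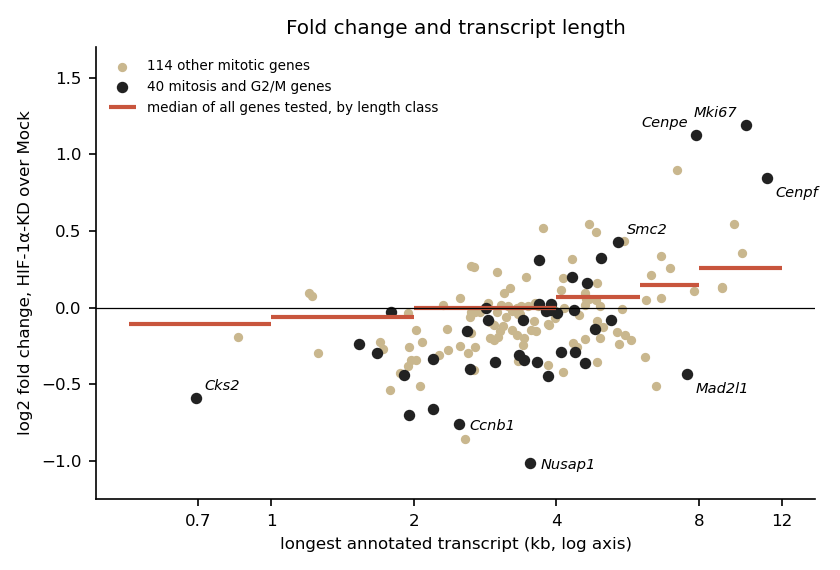
Log2 fold change (HIF-1α-KD over Mock, y axis) against the longest annotated transcript in kilobases (x axis, log scale) for the 40 mitosis and G2/M genes (black) and 114 other mitotic genes (tan), with the median of all genes tested in each length class (red lines, from -0.10 to 0.26). Mki67, Cenpe and Cenpf stand at the upper right, and Mad2l1 is a long gene below 0.

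The promoter motifs set against the fold changes gave no clear split. For the 25 genes with a CHR in a window the median was -0.08 on the log2 scale, with values from -0.66 to 1.19. The 8 genes without one (Ccnb1, Cks2, Mad2l1, Pttg1, Cenpe, Nuf2, Nusap1 and Birc5) had a median of -0.37, with values from -1.01 to 1.13, and the 7 genes for which no window was at hand had a median of -0.02. Both ranges cover nearly the whole spread of the 40 genes.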

How the data were processed

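RNA-seq libraries of sorted tumor cells (3 Mock, 3 HIF-1α-KD) were grouped by the knock-down given in their labels. The submitters' processing notes name STAR, edgeR and GRCm38, while the study's methods name the human assembly GRCh38, and the identifiers are those of mouse genes in Ensembl. A single table (22880 genes) was deposited. It holds the normalized count, a signal for which the authors divided every count by 1 factor per library, rounded to 4 significant digits, beside deposited FPKM values, a deposited GC content as a fraction and a gene width in bases. The authors' own log2 ratio, p-value, false discovery rate and cluster columns were not used.

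Reads were recovered by removing the library factor; 100% of values up to 300 reads came out whole (tolerance 0.1). filterByExpr of edgeR 4.0.16 (minimum count of 10) on these reads kept 12014 genes. Log2 of the normalized count plus 1 was tested with limma 3.58.1 (mean-variance trend, two-sided, Benjamini-Hochberg over all genes tested). An exact permutation test of 3 against 3 cannot give a p-value below 0.1 and was not run. No pair of libraries within a group was as alike as read sampling alone would give. The 10 genes with most reads took 6.21% to 8.23% of a library. Transcript lengths came from GENCODE M21, promoters from RefSeq, for 33 of 40 genes. The tests were tested on simulated data first. Alternatives were edgeR and DESeq2 1.42.0 on recovered reads, limma without trend, other scalings (library size, TMM), no filter, pseudocounts of 0.1 and 10, a replicate block, corrections for GC content and transcript length, and leaving out each library.

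The 40 genes and the comparison lists were chosen with earlier results of these data known. Values in every library are given for genes at an unadjusted p-value under 0.05, the 3 highest and 3 lowest log2 fold changes, and usual markers of dividing cells. Values by library of Cdc25c, Ube2c and Cdc20 were added after they were seen. From the other lists, up to 3 genes per direction with the smallest p-values are named. Promoters follow p-value order among named genes with a CHR, where the element lies within the stretch shown. R 4.3.3, Python 3.11.15 and pandas 2.3.3 were used.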

Additional observations from a re-analysis of the deposited data

How the results depend on the processing

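No alternative called any of the 40 genes at an adjusted p-value under 0.05, in 18 alternatives for 36 results. With the replicate block, without Mock library 3 and without HIF-1α-KD library 2, 0 of all genes tested were called either. In these settings the 0 of the 40 says nothing about the 40 genes. The most calls among all 12014 genes came from DESeq2, with 96 higher and 187 lower. Of the 40 genes, 26 kept the sign of their log2 fold change in every alternative, 19 below 0 and 7 above, and the others changed sign in at least 1. Genes higher at an unadjusted p-value numbered 0, beside 7.04% of all genes tested. They numbered 1 with DESeq2 (6.78%), with scaling by library size (9.03%) and with the GC correction (7.53%), and 2 with no filter on low counts (6.09%). Genes lower numbered 5, beside 5.69% of all genes tested. They numbered 3 in limma without trend (5.39%), 1 with scaling by library size (4.36%) and 8 with TMM scaling (6.28%). Genes without overlap on the lower side numbered 4, beside 8.75% of all genes tested. They numbered 7 with edgeR (9.67%), DESeq2 (9.17%) and TMM scaling (9.67%). On the higher side they numbered 2, beside 10.4% of all genes tested. They numbered 0 with the GC correction (10.6%) and with the correction for the longest annotated transcript (9.42%). With each library left out in turn, these counts ranged from 0 to 3 (unadjusted, higher), 1 to 9 (unadjusted, lower), 2 to 6 (no overlap, higher) and 4 to 14 (no overlap, lower). Of all genes tested, 3.90% to 7.71% were higher and 4.24% to 5.85% lower at an unadjusted p-value with a library left out. In 13.5% to 17.6% of them the groups did not overlap on the higher side, and in 12.2% to 15.3% on the lower side. Of the genes given in every library by rule, Foxm1 and Top2a reversed. The log2 fold change of Foxm1 ranged from -0.0855 to 0.3875 with a library left out, reversing to -0.0855 without Mock library 1 and -0.0269 without HIF-1α-KD library 1. That of Top2a ranged from -0.3677 to 0.3314, reversing to 0.0694 without Mock library 2 and 0.3314 without HIF-1α-KD library 3. The cause of these reversals was not tested. The median of the 40 genes minus that of all genes lay between -0.32 and -0.05 with a library left out.

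Replicate numbers gave no sign of a pairing of the samples, which 3 libraries per group cannot exclude. Deviations of same-numbered libraries correlated at -0.14, -0.12 and 0.02, and those of unlike-numbered libraries at -0.07 to 0.16. With a replicate block, 2 genes were higher and 8 lower at an unadjusted p-value (5.97% and 5.05% of all genes). An adjusted one was passed by 0 of the 40 and by 0 of all genes tested. Each of the 40 genes had at least 57 reads in every library, and whether depth limited the calls was not tested. The 95% interval of a log2 fold change reached 0.47 to either side in the median gene.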
